A study of Homo sapiens with 34 samples.

Results

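The comparison is of LNCaP cells grown on amorphous calcium phosphate (ACP) in androgen medium with the same cells on ACP in control medium. Its members are the 2 libraries of each group, chosen by their labels, which makes 4 of the 34 libraries of the series. LNCaP is a human prostate cancer line taken from a lymph node metastasis and labelled as prostate epithelium, and ACP is a mineral coating of the culture surface. The control group received RPMI medium with 10% fetal bovine serum. The androgen group received the medium with charcoal-dextran stripped serum and an added androgen, labelled at 100 mM and named DHT in the sample titles but testosterone in the treatment labels. A pair of LNCaP libraries on ACP in stripped serum without androgen served as the third point of reference, since androgen medium differs from control medium in the serum as well as in the hormone. Cells for all 3 media came from flasks kept in continuous culture, were given 1 change of medium and were harvested on day 4. The spread was estimated over all 10 LNCaP libraries, which include a pair on plastic in control medium and a pair on plastic in stripped serum. The labels do not say whether replicates came from separate cultures, so the p-values measure the spread between these libraries, which may be technical.

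Androgens enter prostate cells and bind a nuclear receptor that then attaches to response elements in DNA and raises or lowers transcription of nearby genes. Its best known products in the luminal epithelium are the secreted kallikreins, the serine protease TMPRSS2 and the chaperone FKBP5, and the receptor also drives lipid and cholesterol synthesis. Charcoal stripping removes steroid hormones from serum together with other small lipophilic molecules such as thyroid hormone and retinoids, while proteins remain. A gene that falls on stripping and returns with androgen therefore behaves differently from a gene that stays at its new level, and the comparison asks which genes returned to the control level, went past it or did not return.

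Total counts were 25.7 M to 30.1 M in the 6 LNCaP libraries on ACP, and the libraries of each pair had an r (Pearson) between 0.976 and 0.989 over genes, themselves no independent replicates. The 16 markers of luminal prostate epithelium were read in every library, with a summed level of 8850 to 11500 CPM (counts scaled to the library total) in control, 9660 to 10400 CPM in stripped and 12600 to 13100 CPM in androgen medium. Sums were far lower for 12 basal or squamous markers (64.8 to 107 CPM in the 6 libraries), 12 fibroblast and muscle markers (25.9 to 86.2 CPM), 10 endothelial markers (15.1 to 43.3 CPM) and 12 leukocyte markers (2.89 to 8.84 CPM), of which 4 to 6 were at 0 in each library. The 12 listed transcripts without a poly(A) tail that the table holds summed to 184 to 401 CPM in control, 232 to 281 CPM in stripped and 513 to 640 CPM in androgen medium, and the part of RNA quality in the results was not tested. In bulk RNA, fewer cells with a transcript and less of it per cell cannot be told apart.

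Androgen medium left LNCaP cells far from their control-medium state. Of 14656 genes tested, 2218 (15.1%) were called at an adjusted p below 0.05 by edgeR's quasi-likelihood test with Benjamini-Hochberg adjustment, 1137 of them (7.76%) higher and 1081 (7.38%) lower in androgen medium. Stripped serum alone gave 787 called genes against control (5.37%), 481 raised (3.28%) and 306 lowered (2.09%), and androgen against stripped serum gave 1133 (7.73%), 552 higher (3.77%) and 581 lower (3.96%). The androgen and control libraries did not overlap in 8249 genes (56.3%), 4030 with androgen higher (27.5%) and 4219 with androgen lower (28.8%), so a lack of overlap alone says little. Among the 2218 called genes the libraries overlapped in only 2, so a lack of overlap adds little to a call. The 3 comparisons share libraries, so a control library that stands apart moves the first 2 alike. The count of 2218 fell to 701 without androgen replicate 1 and to 1079 without control replicate 1. Androgen replicate 1 lay farther from the control mean than replicate 2 in 1788 of 2196 called genes with a read in all 4 libraries (81.4%), beside 9288 of 14425 (64.4%) over all such genes tested.

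The 787 genes that stripping moved fell into 4 classes. Restored were 123 genes (15.6%), which androgen moved back from the stripped level and whose difference from control was not called and had a 95% interval within 2-fold. Overshot were 25 genes (3.18%), called against control on the side opposite to stripping. Left off were 363 genes (46.1%), called against control on the same side as stripping. The other 276 (35.1%) stayed unresolved: for 181 of them the interval reached past 2-fold, and the other 95 lay within 2-fold but were not called between androgen and stripped serum. Overshooting was mostly upwards, in 21 of the 306 genes lowered by stripping (6.86%) beside 4 of the 481 raised by it (0.832%). Left off were 240 of the 481 genes raised by stripping (49.9%) and 123 of the 306 lowered by it (40.2%). The class of a gene was less stable than its values. Among the named genes that fell in a class, IGF1R, KCNMA1, CHRNA2, HPGD and ELOVL5 kept it with each of the 6 libraries left out. So did DSCAM-AS1, BASP1, MAPK4, GAPLINC and TM4SF1. KLK3, FKBP5, AMIGO2 and PGC kept their class with 3 of the 6, C2orf72 with 2, PLA2G2A and KLK2 with 1, and HOXA11 and ATP13A3 with 0. Without stripped replicate 1 or 2 the restored genes numbered 20 and 32, the overshot 9 and 9, and the left off 103 and 109; the genes called for stripping then numbered 191 and 216. Overshot genes numbered 14 without androgen replicate 1, 68 without androgen replicate 2, 12 without control replicate 1 and 15 without control replicate 2, and left-off genes numbered 232 without control replicate 1.

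**Figure D1:**
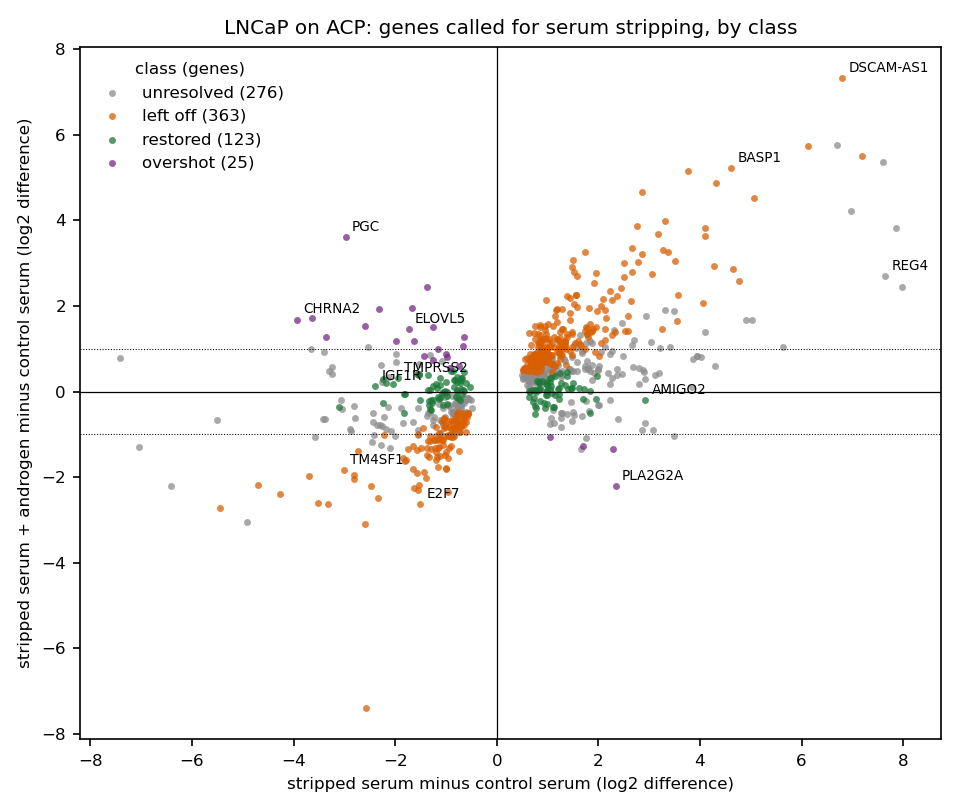
Each point is 1 of the 787 genes called for stripping in LNCaP on ACP, at its log2 difference of stripped from control serum (x axis) and of androgen medium from control serum (y axis), coloured by class. By the rules of the classes, restored genes (123) lie along the zero line, overshot genes (25) cross it and left-off genes (363) keep their stripping sign. Both axes use the same control libraries.

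Genes that androgen returned to the control level included the best known androgen-dependent products. KLK3, which encodes prostate-specific antigen, stood at 2369 and 3496 CPM in control, 1664 and 1937 CPM in stripped and 3506 and 3753 CPM in androgen medium. Its androgen libraries both lay above the control libraries, but by less than the spread allowed (log2 0.31 ± 0.17 SE, adjusted p 0.251). TMPRSS2 went from 546 and 1039 CPM in control to 209 and 202 CPM in stripped and 991 and 987 CPM in androgen medium (log2 0.32 ± 0.23 against control, adjusted p 0.374). In both genes the lower control library was replicate 1, and without control replicate 2 the differences of KLK3 (log2 0.61, adjusted p 0.0286) and TMPRSS2 (log2 0.86, adjusted p 0.00712) were called. FKBP5, a chaperone that binds steroid receptors, was at 240 and 183 CPM in control, 62.4 and 84.4 CPM in stripped and 337 and 225 CPM in androgen medium, where the groups overlapped (log2 0.41 ± 0.23, adjusted p 0.25).

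The 250 bases before the KLK3 start, from RefSeq on GRCh38.p14 at chr19:50854665-50854914 (plus strand), are shown because this stretch holds the classical androgen-responsive part of the promoter, and capitals mark the hexamer AGAACA, an arm of the androgen response element.

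KLK3: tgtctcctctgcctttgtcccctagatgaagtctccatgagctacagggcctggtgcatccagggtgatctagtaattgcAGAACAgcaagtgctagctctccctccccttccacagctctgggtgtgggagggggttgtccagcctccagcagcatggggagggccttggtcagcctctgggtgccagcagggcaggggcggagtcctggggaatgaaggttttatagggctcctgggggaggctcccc

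AGAACA, searched on both strands of the 250 bases before each start, is in 12.4% of the 27305 RefSeq promoters and in 7.41% of the 10790 promoters matched to genes tested. It is in 6 of 90 matched restored genes, 2 of 19 overshot genes and 24 of 254 left-off genes. The full palindrome, AGAACA followed by its mirror arm TGTTCT after any 3 bases, is in 1 of the 27305 promoters and in none of these classes. These letters in this window are a description, and nothing about binding follows from them.

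The restored genes with the largest falls on stripping were ELOVL7, which elongates very long fatty acids, the insulin-like growth factor receptor IGF1R and the potassium channel KCNMA1. ELOVL7 fell from 40.5 and 50.3 CPM to 3.83 and 6.72 CPM with stripping (log2 -3.11, adjusted p 0.000565) and stood at 29.8 and 41.1 CPM with androgen. IGF1R, a receptor that promotes growth and survival, was at 18.5 and 17.7 CPM in control, 3.07 and 3.82 CPM in stripped and 24.3 and 15.2 CPM in androgen medium. KCNMA1 was at 132 and 108 CPM in control, 26.3 and 24.1 CPM in stripped and 86.1 and 114 CPM in androgen medium. In IGF1R and KCNMA1 the androgen and control libraries overlapped, and in ELOVL7 only the higher androgen library reached the lower control one. Among restored genes that stripping had raised, the cell adhesion gene AMIGO2 stood out, at 1.74 and 1.81 CPM in control, 13.5 and 13.4 CPM in stripped and 1.16 and 1.93 CPM in androgen medium. MYLK, the kinase of myosin light chains, rose to 15.6 and 20.2 CPM from 4.19 and 4.88 CPM and came back to 4.81 and 6.76 CPM, and the homeobox gene HOXA11 rose to 5.73 and 5.12 CPM from 1.70 and 1.10 CPM and came back to 1.16 and 1.31 CPM. Over the class, the median difference from control was log2 0.04 for the 63 genes lowered and 0.04 for the 60 genes raised by stripping. Their stripping effects had medians of -1.11 and 1.04. The class takes only genes whose interval lies within 2-fold of control, so medians near 0 follow from its rule.

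Overshot genes took in secreted and lipid-related androgen targets. CHRNA2, a subunit of the nicotinic acetylcholine receptor, was read at 17.1 and 12.2 CPM in control, 1.17 and 0.726 CPM in stripped and 54.2 and 39.7 CPM in androgen medium (log2 1.68 ± 0.24 against control, adjusted p 0.00231). HPGD, which inactivates prostaglandins, was at 20.2 and 19.1 CPM, 1.31 and 1.83 CPM and 78.6 and 50.4 CPM in the same order (log2 1.72 ± 0.25, adjusted p 0.00217). ELOVL5, an elongase of polyunsaturated fatty acids, was the most abundant of those named, at 1447 and 1529 CPM in control, 388 and 507 CPM in stripped and 4793 and 3431 CPM in androgen medium (log2 1.47 ± 0.20, adjusted p 0.00182). In these 3 genes every androgen library lay above every control library, and every stripped library below. PGC, the precursor of gastricsin, was at 13.1 and 22.4 CPM in control, 2.21 and 2.29 CPM in stripped and at the unequal levels of 371 and 61.3 CPM in androgen medium (log2 3.61 ± 0.64, adjusted p 0.00543). Its size rests on androgen replicate 1, without which it was log2 1.79 (adjusted p 0.0158), and it was 4.39 without androgen replicate 2. KLK2, a kallikrein next to KLK3, was at 91.1 and 103 CPM in control, 49.9 and 48.9 CPM in stripped and 218 and 122 CPM in androgen medium (log2 0.81 ± 0.23, adjusted p 0.036), and was no longer called without androgen replicate 1 (log2 0.33, adjusted p 0.336), control replicate 1 (0.73, 0.155) or control replicate 2 (0.90, 0.0635). The tubulin TUBA3D, which has near-identical copies, rose from 7.83 and 4.61 to 18.5 and 11.6 CPM (log2 1.27) and lost its call without androgen replicate 1 (log2 0.90, adjusted p 0.15) or control replicate 2 (0.94, 0.0681).

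A smaller group of 4 genes overshot downwards, and 3 of them are named. PLA2G2A, a secreted phospholipase, was at 17.01 and 53.8 CPM in control, 181 and 177 CPM in stripped and 4.47 and 10.7 CPM in androgen medium (log2 -2.21 ± 0.52, adjusted p 0.0164), a call lost without androgen replicate 1 (log2 -1.72, adjusted p 0.126) or control replicate 2 (-1.16, 0.106). It was -2.98 without androgen replicate 2 and -2.82 without control replicate 1. Without stripped replicate 1 or 2 PLA2G2A was no longer called for stripping and so left the overshot class. TLL1, a metalloprotease related to BMP1, was at 9.69 and 7.68 CPM in control, 34.04 and 51.3 CPM in stripped and 3.36 and 3.48 CPM in androgen medium (log2 -1.34 ± 0.27, adjusted p 0.00817, and 0.0562 without androgen replicate 1). SLITRK3, a neuronal membrane protein, was at 8.47 and 7.28, 22.0 and 29.2, and 2.65 and 3.86 CPM (log2 -1.27 ± 0.27, adjusted p 0.0107, lost without androgen replicate 1 at 0.09 and without control replicate 1 at 0.0541). All 3 had androgen libraries under every control library.

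The genes left off the control level on the high side include some of the largest differences between androgen and control medium. DSCAM-AS1, a long non-coding RNA known as an estrogen target in breast cancer, was near absent in control medium at 0.593 and 1.81 CPM and was read at 153 and 117 CPM in stripped and 251 and 132 CPM in androgen medium (log2 7.31 ± 0.46 against control, adjusted p 2.97e-05). Androgen against stripped serum was not called for it (log2 0.51, adjusted p 0.37). Its difference from control was log2 6.73 without control replicate 1 and 8.33 without control replicate 2, with the call kept. It lies antisense to another gene, and the use of strand in counting is not given in the sources used here. BASP1, a membrane protein of nerve growth cones, was at 0.989 and 5.04 CPM in control, 65.7 and 82.2 CPM in stripped and 98.4 and 125 CPM in androgen medium (log2 5.21 ± 0.50, adjusted p 0.000303), a value of 4.47 without control replicate 1 and 6.82 without control replicate 2. HOPX, a homeodomain-only protein, was at 1.15 and 0.197, 11.8 and 6.57, and 36.8 and 11.6 CPM (log2 5.16 ± 0.69, adjusted p 0.0016). It was 4.10 without androgen replicate 1, 5.77 without androgen replicate 2, 6.91 without control replicate 1 and 4.39 without control replicate 2. GAPLINC, a long non-coding RNA, was at 0.237 and 0.118 CPM in control and 3.99 and 4.31 CPM with androgen (log2 4.52 ± 0.45, adjusted p 0.000322). For each of these 4 genes every stripped and androgen library stood above every control library.

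Most of the 363 left-off genes, 334 (92.0%), were not called between androgen and stripped serum, which does not show that the levels were equal. Androgen carried 15 (4.13%) farther from control and 14 (3.86%) part of the way back. Among the former were the neuronal stathmin STMN4 (0.198 and 0.394 CPM in control, 2.38 and 1.99 in stripped, 10.3 and 4.86 in androgen medium) and the kinase MAPK4 (1.27 and 2.01, 12.5 and 9.59, 31.5 and 16.5 CPM). Their differences from control were log2 4.66 ± 0.56 (adjusted p 0.000967) and 3.87 ± 0.36 (0.000288), and that of STMN4 was 4.02 without androgen replicate 1. ASAH1, the lysosomal acid ceramidase, was chosen after its values were seen, since it was abundant and went up in both steps, from 289 and 277 CPM in control to 975 and 912 CPM in stripped and 3359 and 2101 CPM in androgen medium (log2 3.27 ± 0.20). FAR2P2, a pseudogene whose reads may belong to related copies, was not called between androgen and stripped serum (log2 0.67, adjusted p 0.128). It was at 1.03 and 1.26, 12.9 and 9.89, and 20.6 and 15.7 CPM in the same order (log2 3.98 against control). APOL4, an apolipoprotein of the inflammatory response, was at 0.317 and 0.0787 CPM in control, 5.48 and 5.42 CPM in stripped and only 0.82 and 1.59 CPM in androgen medium (log2 2.59 ± 0.57 against control, adjusted p 0.0129; without control replicate 2 1.92 and 0.0533, without control replicate 1 3.88), a partial return (log2 -2.17 against stripped, adjusted p 0.0152).

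On the low side, TM4SF1, a surface protein of migrating cells, was at 132 and 120 CPM in control, 12.1 and 19.2 CPM in stripped and 29.3 and 41.5 CPM in androgen medium (log2 -1.83 ± 0.24, adjusted p 0.00156). It also returned part of the way (log2 1.18 against stripped, adjusted p 0.0163). RBM24, an RNA-binding protein of muscle, was at 16.1 and 34.8, 4.66 and 2.56, and 9.55 and 3.66 CPM (log2 -1.95 ± 0.46, adjusted p 0.0167), a call lost without androgen replicate 2 (0.0555) or control replicate 2 (log2 -1.30, 0.0868), and it was -2.80 without androgen replicate 1. C2orf72, with no role given here, was at 15.98 and 21.8, 2.45 and 3.21, and 3.62 and 10.7 CPM (log2 -1.40 ± 0.38, adjusted p 0.0322), lost without androgen replicate 1 (0.108), control replicate 1 (0.0528) or control replicate 2 (0.107), and it was -2.38 without androgen replicate 2.

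Amino acid supply genes were prominent among the left-off genes that stripping lowered, and a list of 49 genes of the ATF4 response was written after these values were seen. ATF4 is the transcription factor that cells use when amino acids are short, and its targets make serine and asparagine, carry amino acids across the membrane and charge transfer RNAs. All 49 were tested: 33 were lower and 0 higher in androgen than in control medium, 31 were lower in stripped than in control serum, and 29 fell in the left-off class with 0 restored. The median difference was log2 -1.02 in androgen and -0.84 in stripped medium, beside -0.01 over all genes tested for each. Of all genes tested 7.38% were called lower in androgen and 2.09% lower in stripped than in control medium. ATF4 itself was at 607 and 632 CPM in control, 386 and 352 CPM in stripped and 229 and 248 CPM in androgen medium (log2 -1.38 ± 0.13, adjusted p 0.000315), and it was also lower with androgen than in stripped serum (log2 -0.63, adjusted p 0.0172). PSAT1, of serine synthesis, went from 724 and 641 to 308 and 290 and then 187 and 265 CPM (log2 -1.60 ± 0.20). MTHFD2, of mitochondrial folate metabolism, went from 258 and 225 to 83.2 and 80.2 and then 56.5 and 73.8 CPM (log2 -1.89 ± 0.18). ASNS, the asparagine synthetase, went from 213 and 209 to 90.0 and 77.1 and then 78.0 and 68.0 CPM (log2 -1.53 ± 0.18). CHAC1, which degrades glutathione, had the largest fall of the list, from 30.8 and 49.6 to 9.62 and 6.34 and then 7.23 and 7.04 CPM (log2 -2.49 ± 0.35). In these 5 genes all androgen libraries lay under all control libraries. SLC7A11, the cystine transporter, was not called, with unequal androgen libraries at 113 and 37.6 CPM beside 154 and 154 CPM in control (log2 -1.04, adjusted p 0.0972).

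The 100 bases before the ASNS start (RefSeq, GRCh38.p14, chr7:97872409-97872508, minus strand) hold the C/EBP-ATF response element through which amino acid shortage is read at this gene, and capitals mark the letters TGATGNAA.

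ASNS: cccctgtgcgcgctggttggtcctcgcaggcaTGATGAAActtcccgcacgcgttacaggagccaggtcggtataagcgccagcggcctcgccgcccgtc

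TGATGNAA, on either strand of the 250 bases before the start, is in 5 of the 30 promoters matched to the list (16.7%) beside 1.42% of the promoters matched to genes tested and 3.19% of all RefSeq promoters. It was searched for after the values were seen.

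**Figure D2:**
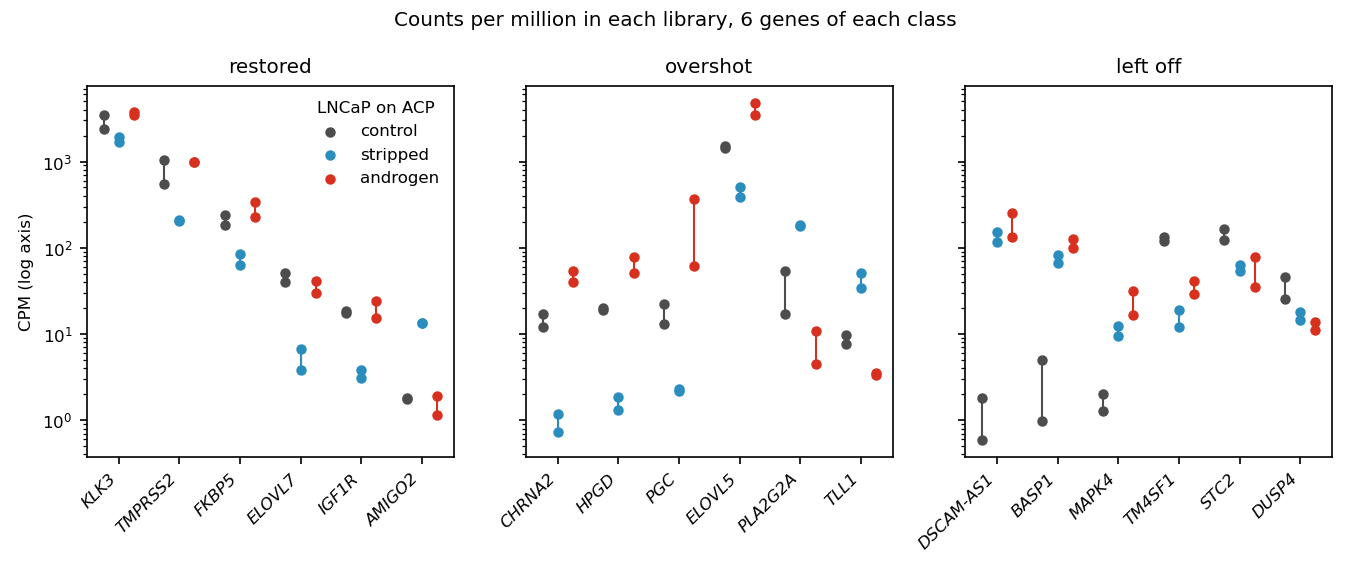
Points give the CPM of each of the 6 LNCaP libraries on ACP (log axis) for 6 genes of each class, with a line joining the replicates of a group. Androgen libraries sit beside the control libraries in restored genes such as TMPRSS2 (991 and 987 against 546 and 1039 CPM). They lie beyond the control libraries in overshot genes such as CHRNA2 (54.2 and 39.7 against 17.1 and 12.2 CPM). In left-off genes they stay on the stripped side of control. BASP1 was at 98.4 and 125 CPM with androgen, 65.7 and 82.2 CPM in stripped and 0.989 and 5.04 CPM in control medium. MAPK4 and TM4SF1 were also called between androgen and stripped serum.

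Genes that androgens are known to repress were in part lower with androgen than in stripped serum. Of 26 tested members of this list, 13 were raised by stripping and 15 were lower in androgen than in stripped serum, while 3 were higher and 3 lower in androgen than in control medium, a count that became 3 in all without androgen replicate 1 and 15 without androgen replicate 2. Among all genes tested 3.28% were raised by stripping and 3.96% were lower than in stripped serum. Against control medium 7.76% were higher and 7.38% lower. OPRK1, the kappa opioid receptor, was at 7.28 and 6.10 CPM in control, 47.5 and 65.5 CPM in stripped and 1.23 and 5.90 CPM in androgen medium. DDC, which makes dopamine and serotonin, was at 16.9 and 22.0, 116 and 167, and 4.40 and 16.6 CPM. The androgen libraries of OPRK1 and DDC lay under the control libraries, replicate 1 well under replicate 2, and neither difference was called (adjusted p 0.22 for OPRK1 and 0.186 for DDC). UGT2B17, which inactivates androgens by glucuronidation and shares reads with near-identical copies, was at 420 and 218, 1118 and 1136, and 216 and 251 CPM (log2 -0.45 against control, adjusted p 0.273). REG4, a secreted lectin, was at 3.20 and 3.70 CPM in control, 766 and 623 CPM in stripped and 42.9 and 1.90 CPM in androgen medium, so its androgen libraries stood on opposite sides of control (log2 2.69 ± 0.90, adjusted p 0.0663). Without androgen replicate 1 REG4 was at log2 -0.86 (adjusted p 0.114) and without androgen replicate 2 at 3.63 (1.03e-05). CLU, the chaperone clusterin, went the other way, at 16.3 and 34.7 CPM in control, 69.0 and 73.6 CPM in stripped and 271 and 115 CPM in androgen medium (log2 2.92 ± 0.40, adjusted p 0.00184), and at log2 2.17 without androgen replicate 1 and 3.57 without control replicate 2. UGT2B28, another glucuronosyltransferase with near-identical copies, was at 10.4 and 2.83, 0.966 and 1.38, and 83.3 and 17.7 CPM (log2 2.93 ± 0.66, adjusted p 0.0137), a call lost without androgen replicate 1 (log2 1.42, adjusted p 0.159) or control replicate 2 (2.28, 0.0527). It was 3.65 without androgen replicate 2 and 4.15 without control replicate 1.

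Of the 2218 genes called between androgen and control medium, 1830 were not called for stripping, 876 of them higher and 954 lower; a missing call does not show that stripping left a gene unchanged. PTPN21, a cytoskeletal tyrosine phosphatase, was the clearest of those that rose, at 4.75 and 7.05 CPM in control, 9.83 and 9.85 CPM in stripped and 103 and 82.6 CPM in androgen medium (log2 3.97 ± 0.26, adjusted p 2.97e-05). It was also higher than in stripped serum (log2 3.23, adjusted p 7.18e-05), and its difference from control stayed between 3.72 and 4.29 when 1 library was left out. KRTAP13-2, a hair keratin-associated protein, was at 3.62 and 0.993 CPM in stripped serum and 11.1 and 0.483 CPM in androgen medium. It was not called between these 2 media (log2 1.32, adjusted p 0.467). Stripped against control was at log2 6.61, also without a call (adjusted p 0.0778). KRTAP13-2 had 0 and 1 reads in control and 298 and 14 reads in androgen medium. Against control it had a ratio of 283, with a 95% interval of 50.5 to 11200 that covers counting error only. Its call (adjusted p 0.0168) was lost without androgen replicate 1 (0.129), control replicate 1 (0.103) or control replicate 2 (0.0631). STEAP4, a metalloreductase, was at 0.87 and 0.512 CPM in control and 12.2 and 3.72 CPM in androgen medium (log2 3.52 ± 0.62, adjusted p 0.00518), a value of 2.42 without androgen replicate 1 and 4.14 without androgen replicate 2.

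Among the genes that fell, MMP16, a membrane-bound matrix metalloprotease, was at 47.4 and 37.0 CPM in control, 56.2 and 60.7 CPM in stripped and 4.55 and 8.21 CPM in androgen medium (log2 -2.72 ± 0.25, adjusted p 0.000288). CNGB3, a cyclic nucleotide-gated channel subunit, was at 9.89 and 6.69, 9.48 and 9.32, and 1.01 and 1.72 CPM (log2 -2.59 ± 0.30, adjusted p 0.000809). SLC22A10, a member of the organic anion transporter family, was at 4.95 and 8.70, 4.10 and 8.36, and 0.373 and 0.931 CPM (log2 -3.37 ± 0.47, adjusted p 0.00193, and -4.18 without androgen replicate 2). The rule that named these 3 genes asked for androgen libraries clear of the control libraries. Their androgen libraries also lay under both stripped libraries, and each gene was called against stripped serum. TNFSF10, the death ligand TRAIL, was at 8.15 and 9.88, 7.55 and 8.02, and 0.447 and 2.28 CPM (log2 -2.71 ± 0.52, adjusted p 0.00715), a value of -1.99 without androgen replicate 1 and -4.32 without androgen replicate 2. The cytidine deaminase APOBEC3B fell from 38.01 and 73.5 CPM to 3.17 and 13.2 CPM (log2 -2.76 ± 0.50, adjusted p 0.00598), the DNA glycosylase NEIL3 from 26.7 and 12.5 CPM to 1.57 and 4.93 CPM (log2 -2.58 ± 0.47, adjusted p 0.00587) and the centrosome kinase NEK2 from 87.6 and 53.7 CPM to 5.70 and 17.9 CPM (log2 -2.58 ± 0.42, adjusted p 0.00375). E2F7, a repressor of the E2F family that also belongs to the left-off class, fell from 19.6 and 13.7 CPM to 1.53 and 3.79 CPM (log2 -2.63 ± 0.38, adjusted p 0.00227). In stripped serum APOBEC3B was at 20.5 and 23.0, NEIL3 at 8.55 and 9.70, NEK2 at 37.3 and 44.0 and E2F7 at 5.69 and 5.96 CPM. Androgen against stripped serum was called for NEK2 (log2 -1.78, adjusted p 0.0261). It was not called for APOBEC3B (log2 -1.40, adjusted p 0.108), NEIL3 (-1.48, 0.0757) or E2F7 (-1.12, 0.0965). The size of the 4 differences from control moved with the library left out. Without androgen replicate 1 APOBEC3B was at log2 -2.08, NEIL3 at -1.99 and NEK2 at -1.98. Without androgen replicate 2 APOBEC3B was at -4.14, NEIL3 at -3.64, NEK2 at -3.63 and E2F7 at -3.44, and NEIL3 was at -1.93 without control replicate 1. All 4 kept their call each time.

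Secreted androgen-induced products were on balance above the control level. Of 16 tested, 7 were higher and 0 lower in androgen than in control medium, with a median of log2 0.81, while 7 had been lowered by stripping. The shares over all genes tested were 7.76% higher, 7.38% lower and 2.09% lowered by stripping. KLK4, another prostate kallikrein, was at 106 and 139 CPM in control, 188 and 163 CPM in stripped and 523 and 387 CPM in androgen medium (log2 1.89 ± 0.19, adjusted p 0.000365). AZGP1, a lipid-mobilising glycoprotein, was at 33.6 and 38.3, 14.4 and 17.9, and 373 and 125 CPM (log2 2.79 ± 0.39, adjusted p 0.00187, and 1.80 without androgen replicate 1). ACPP, prostatic acid phosphatase, was instead raised by stripping, from 71.6 and 80.7 CPM to 244 and 389 CPM, and stayed at 108 and 224 CPM with androgen (log2 1.12 ± 0.30, adjusted p 0.029), a call lost without androgen replicate 2 (log2 0.51, adjusted p 0.183), control replicate 1 (0.132) or control replicate 2 (0.0631). ORM1, an acute-phase protein with a near-identical copy, was at 0.119 and 0.197 CPM in control and 1.27 and 2.97 CPM in androgen medium (log2 3.72 ± 0.85, adjusted p 0.0146), a call lost without androgen replicate 2 (log2 2.97, 0.0621) or control replicate 1 (0.0854). The count of 7 was 3 without control replicate 1.

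Androgen-induced genes with roles inside the cell gave 18 higher and 1 lower of 41 tested, with a median of log2 0.80, and 15 of them had been lowered by stripping. Among all genes tested 7.76% were higher, 7.38% lower and 2.09% lowered by stripping. ELL2, a factor of transcript elongation, was at 104 and 64.9, 31.3 and 36.7, and 374 and 151 CPM (log2 1.63 ± 0.37, adjusted p 0.0138), a call lost without androgen replicate 1 (log2 0.84, adjusted p 0.132) or control replicate 2 (0.0682). SLC45A3, the sugar transporter prostein, was at 305 and 260, 71.6 and 72.1, and 656 and 631 CPM (log2 1.19 ± 0.16, adjusted p 0.00184). CDC14B, a phosphatase, did not need a fall on stripping to rise above control, at 12.2 and 10.8, 17.5 and 18.1, and 49.0 and 49.3 CPM (log2 2.09 ± 0.18, adjusted p 0.000237). SORD, which converts sorbitol to fructose, was at 1154 and 1030, 993 and 846, and 3192 and 1877 CPM (log2 1.21 ± 0.21, adjusted p 0.00501). CAMKK2, a calcium-dependent kinase that activates AMPK, was the only member called lower than in control medium. It was at 159 and 161 CPM in control, 90.9 and 115 CPM in stripped and 64.1 and 119 CPM in androgen medium. Androgen against stripped serum was not called for it (log2 -0.17, adjusted p 0.707). Against control it was called at log2 -0.80 ± 0.23 (adjusted p 0.0412). That call was lost without androgen replicate 1 (log2 -0.43, adjusted p 0.22), control replicate 1 (0.114) or control replicate 2 (0.0887).

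Cell cycle genes were lower in androgen medium than in control medium without exception in the lists. All 32 genes of DNA replication were called lower, from log2 -2.30 for DTL to -0.64 for CHAF1A with a median of -1.49, and so were all 30 genes of mitosis, from -2.55 for CENPA to -1.39 for AURKA with a median of -1.96. Of the replication genes 23 were also lower than in stripped serum, and of the mitosis genes 17. The shares over all genes tested were 7.38% lower than in control medium and 3.96% lower than in stripped serum. None of the 62 was called between stripped and control serum, where the medians were -0.44 and -0.61. DTL, which marks replication proteins for degradation, was at 69.9 and 62.9 CPM in control, 31.97 and 36.97 CPM in stripped and 8.84 and 18.1 CPM in androgen medium (log2 -2.30 ± 0.30, adjusted p 0.00138). CENPA, the histone of the centromere, was at 23.2 and 16.1, 11.1 and 14.6, and 1.75 and 4.90 CPM (log2 -2.55 ± 0.39, adjusted p 0.00292). MKI67, the proliferation antigen, was at 99.4 and 64.1, 50.1 and 56.1, and 15.03 and 31.1 CPM (log2 -1.82 ± 0.30), and the mitotic kinase PLK1 was at 113 and 72.9, 61.0 and 67.7, and 12.5 and 35.5 CPM (log2 -1.95 ± 0.37). Without androgen replicate 2 DTL was at log2 -2.91, CENPA at -3.48, MKI67 at -2.44 and PLK1 at -2.89. CHAF1A lost its call without androgen replicate 1 (0.17) or control replicate 1 (0.0877).

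The libraries of a group differed in these genes. From the mean of the control libraries, the median mitosis gene lay at log2 0.33 and -0.33 in the control libraries, -0.77 and -0.40 in the stripped and -2.87 and -1.39 in the androgen libraries, with replicate 1 first. Androgen replicate 1 was the lowest of the 4 libraries compared in 30 of 30 mitosis and 31 of 32 replication genes. The replication genes called numbered 23 without androgen replicate 1 and 25 without control replicate 1, and the mitosis genes called 25 and 21. The number of cells and their cycle stage were not measured here.

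Promoters of 4 of these genes are shown because each holds a known cell cycle motif. The motifs were chosen after the values were seen. In DNA replication genes the capitals mark TTTGGCGC or TTTCCCGC, forms of the E2F site, and in mitosis genes TTTGAA, the cell cycle homology region. All are from RefSeq on GRCh38.p14 and end at the base before the start: MCM6 at chr2:135876444-135876603 (minus strand), DTL at chr1:212035688-212035747, PLK1 at chr16:23678829-23678888 and BUB1B at chr15:40161009-40161068 (plus strand).

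MCM6: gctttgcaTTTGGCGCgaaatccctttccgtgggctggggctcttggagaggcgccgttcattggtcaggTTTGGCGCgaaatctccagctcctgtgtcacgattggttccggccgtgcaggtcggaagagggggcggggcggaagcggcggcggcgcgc

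DTL: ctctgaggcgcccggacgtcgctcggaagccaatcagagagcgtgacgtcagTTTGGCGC

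PLK1: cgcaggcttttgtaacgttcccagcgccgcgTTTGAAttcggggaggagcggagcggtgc

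BUB1B: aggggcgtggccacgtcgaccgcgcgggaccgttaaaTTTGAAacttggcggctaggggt

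Either E2F form, on either strand of the 250 bases before the start, is in 13 of 29 matched replication promoters (44.8%) beside 3.11% of the promoters matched to genes tested and 1.96% of all RefSeq promoters. TTTGAA is in 14 of 24 matched mitosis promoters (58.3%), beside 8.29% and 13.6%. MCM6, with TTTGGCGC at 2 places, fell by 0.75 on the log2 scale (call lost without androgen replicate 1 at an adjusted p of 0.128 or control replicate 1 at 0.116) and DTL, with it at 1 place, fell by 2.30. BUB1B, a kinase of the spindle checkpoint, fell from 92.6 and 62.7 CPM to 13.3 and 30.1 CPM (log2 -1.84, and -2.55 without androgen replicate 2).

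**Figure D3:**
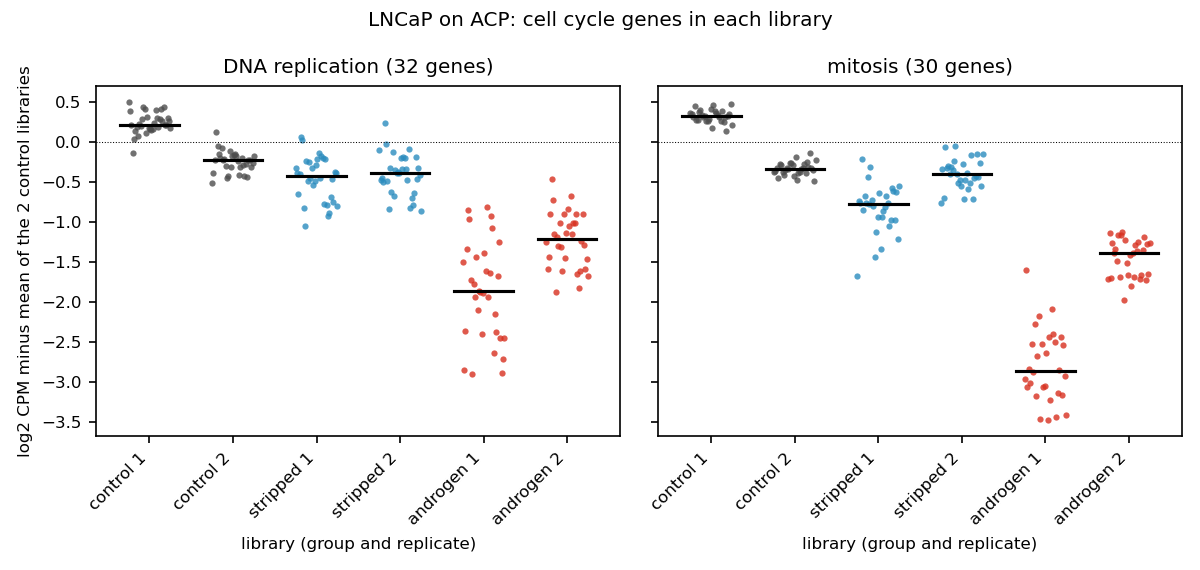
Each point is 1 gene in 1 of the 6 LNCaP libraries on ACP, as its log2 CPM minus the mean of the control libraries, for 32 DNA replication genes (left) and 30 mitosis genes (right), with bars at the medians. The median mitosis gene is at -2.87 and -1.39 in the androgen libraries and at -0.77 and -0.40 in the stripped libraries.

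In cholesterol synthesis 12 of 25 genes tested were higher and 0 lower than in control medium, with a median of log2 0.56, and 14 were higher than in stripped serum. Among all genes tested 7.76% were higher than in control medium and 3.77% higher than in stripped serum. LSS, which closes the sterol rings, was at 110 and 107 CPM in control, 138 and 127 CPM in stripped and 278 and 287 CPM in androgen medium (log2 1.38 ± 0.14, adjusted p 0.000365), and leaving out any 1 library moved this by at most 0.02. MVD, of the mevalonate pathway, was at 43.0 and 35.2, 57.5 and 47.4, and 93.8 and 81.2 CPM (log2 1.16 ± 0.17). TM7SF2 alone of the list had been raised by stripping and was left off, and its call against control was lost without androgen replicate 1 (0.0796) or control replicate 1 (0.106). The 12 calls became 4 without androgen replicate 1 and 8 to 9 without another library.

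Fatty acid synthesis genes gave 6 higher and 0 lower of 22, beside 7.76% and 7.38% of all genes tested, with a median of log2 0.26. FASN, the fatty acid synthase, was restored rather than raised, at 1773 and 2287 CPM in control, 1345 and 955 CPM in stripped and 2683 and 2192 CPM in androgen medium (log2 0.26, adjusted p 0.419), and so was ACLY at 644 and 662, 479 and 430, and 720 and 696 CPM. The members called above control were ELOVL5 (above), ACSL3, ACSL4, ACACA, LPIN1 and ELOVL1. Of these 6, 2 were overshot and 4 were not called for stripping. ACSL3, which activates fatty acids for lipid droplets, was at 349 and 282, 140 and 177, and 732 and 436 CPM (log2 0.89 ± 0.24, adjusted p 0.0316), a call lost without androgen replicate 1 (0.278), control replicate 1 (0.0614) or control replicate 2 (0.121). The calls of ACSL4 (without androgen replicate 2, 0.107, control replicate 1, 0.0738, or control replicate 2, 0.0909) and ACACA (without androgen replicate 1, 0.207, control replicate 1, 0.0682, or control replicate 2, 0.0825) were lost as well. Without control replicate 1 the 6 calls became 3, and without androgen replicate 1 or control replicate 2 they became 4.

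The smaller lists held few calls, and each is given with its largest members. Of all genes tested 7.76% were called higher and 7.38% lower, so a count near these shares is no result about its list. In the insulin-like growth factor axis 1 of 10 was called, IRS2, an adaptor of the insulin receptor, at 7.56 and 9.17 CPM in control, 9.45 and 8.06 CPM in stripped and 93.5 and 43.8 CPM in androgen medium (log2 3.04 ± 0.31, adjusted p 0.000435, and 2.39 without androgen replicate 1). Of 19 targets of other nuclear receptors 2 were higher, among them the calcium channel TRPV6 (lost without androgen replicate 1 at 0.0841 or control replicate 1 at 0.118), and ABCA1, a cholesterol exporter under LXR, was raised by stripping from 1.42 and 1.30 to 6.79 and 7.33 CPM and stood at 1.23 and 2.31 CPM with androgen. Of 14 estrogen-induced genes 3 were higher and 1 lower. GREB1, also known to respond to androgen, was at 17.9 and 15.6 CPM in control, 11.7 and 12.3 CPM in stripped and 59.8 and 38.8 CPM with androgen (log2 1.56 ± 0.21, adjusted p 0.00159), and TFF1 went from 0.593 and 0.472 to 3.47 and 2.31 CPM. STC2, a secreted glycoprotein, was at 122 and 164, 54.1 and 62.3, and 35.3 and 77.1 CPM (log2 -1.35 ± 0.29, adjusted p 0.0116, and -2.02 without androgen replicate 2), and it was not called in the fit of all lines.

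Immediate early genes gave 2 higher and 1 lower of 22, beside 7.76% and 7.38% of all genes tested. SPRY4, an inhibitor of growth factor signalling, was at 1.42 and 1.65 CPM in control and 31.1 and 4.17 CPM with androgen (log2 3.51 ± 0.76, adjusted p 0.0116). This call was lost without androgen replicate 1 (log2 1.44, adjusted p 0.116) or control replicate 1 (0.0721), and it was 4.33 without androgen replicate 2. DUSP4, a phosphatase of MAP kinases, was lower at 11.2 and 13.6 against 25.2 and 45.3 CPM (log2 -1.50 ± 0.25, adjusted p 0.00402). Interferon-stimulated genes gave 3 lower and 0 higher of 29, led by IFITM1 at 1.62 and 3.46 CPM in control and 0.0746 and 0.69 CPM with androgen (log2 -2.70 ± 0.69, adjusted p 0.0244), a call lost without androgen replicate 1 (-1.88, 0.114) or control replicate 2 (-2.05, 0.0985). IFITM1 was at -5.02 without androgen replicate 2. Bone matrix and calcium genes gave 2 higher and 1 lower of 17, with the pyrophosphate exporter ANKH at 130 and 173, 268 and 247, and 668 and 367 CPM (log2 1.77 ± 0.24, adjusted p 0.00184).

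In endoplasmic reticulum folding and secretion 1 was higher and 2 were lower of 31, beside 7.76% and 7.38% of all genes tested. The protein disulfide isomerase P4HB was at 962 and 1155 against 1608 and 1439 CPM (log2 0.53 ± 0.14, adjusted p 0.0316) and PDIA4, of the same family, was at 223 and 262 against 136 and 160 CPM (log2 -0.71 ± 0.16, adjusted p 0.0148). P4HB lost its call without androgen replicate 1 (0.173) or control replicate 1 (0.171), and PDIA4 without androgen replicate 1 (0.121) or control replicate 2 (0.0596). Polyamine genes gave 1 higher and 1 lower of 13. SAT1, which acetylates polyamines for export, was at 107 and 323 CPM in control and 621 and 514 CPM with androgen (log2 1.40, adjusted p 0.0263, and 0.129 without androgen replicate 1; 2.40 without control replicate 2), and ATP13A3, a polyamine transporter, was at 106 and 103 against 65.1 and 63.4 CPM (log2 -0.70, adjusted p 0.0487), a call lost with each of the 4 libraries left out in turn (0.0901 to 0.175). Aryl hydrocarbon and oxidative stress genes gave 1 higher and 0 lower of 12. Neural genes gave 1 of 12, UCHL1, at 1.03 and 0.433 against 3.21 and 1.83 CPM (log2 1.78, adjusted p 0.039, and 0.248 without androgen replicate 1 and 0.147 without control replicate 2; 2.53 without control replicate 1).

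**Figure D4:**
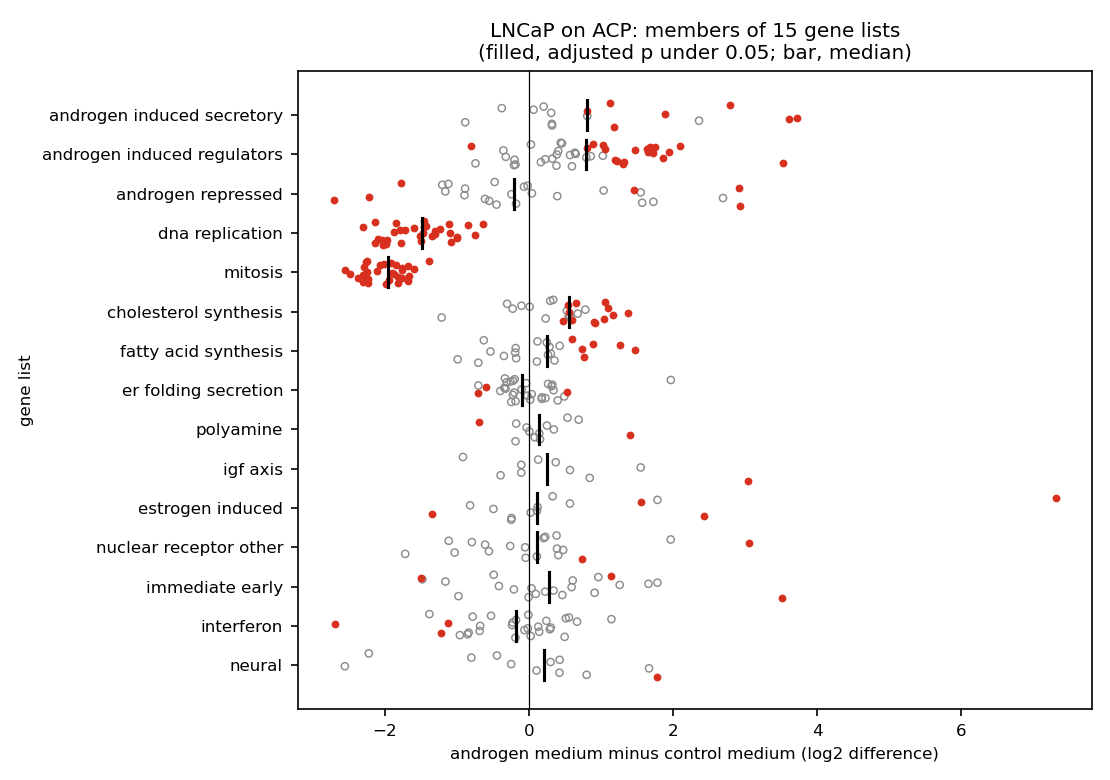
Each point is the log2 difference between androgen and control medium of 1 tested member of 15 gene lists in LNCaP on ACP, filled where called at an adjusted p below 0.05, with a bar at each list's median. The medians of DNA replication (-1.49) and mitosis (-1.96) lie farthest below 0, and those of the secreted and cell-internal androgen-induced genes (0.81 and 0.80) farthest above.

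Luminal markers gave 5 higher and 0 lower of 16, beside 7.76% and 7.38% of all genes tested. KRT8, a keratin of simple epithelia, was at 492 and 557 CPM in control, 897 and 824 CPM in stripped and 1780 and 1033 CPM in androgen medium (log2 1.42 ± 0.22, adjusted p 0.00292). HOXB13, FOXA1, CDH1 and EPCAM were not called. Of 9 tested basal or squamous markers only NGFR was called, with 1 and 2 reads in control and 108 and 41 reads with androgen, a ratio of 45.1 with a 95% interval of 15.1 to 221 for counting error. Its fitted difference of log2 5.43 was 4.49 without androgen replicate 1. KRT5, the basal keratin, was at 0 and 8.19 CPM in control, 10.3 and 2.25 CPM in stripped and 0 and 7.31 CPM in androgen medium, so it was absent from replicate 1 of both groups compared, and the part of other cells in the results was not tested. Of 8 fibroblast and muscle markers only TAGLN was called, at 0.87 and 1.22 against 3.17 and 3.90 CPM (log2 1.75, adjusted p 0.00851, and 0.0533 without control replicate 1). None of 3 leukocyte and 4 endothelial markers was called. Of 9 transcripts without a poly(A) tail the histone genes HIST1H2BD (log2 1.36, adjusted p 0.00314) and HIST1H1C (log2 1.25, adjusted p 0.00356) were higher, while RPPH1 ranged from 7.56 to 126 CPM within the control pair alone. Reads of histone genes can be split among near-identical copies.

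The same media were compared on ACP in VCaP, a line from a vertebral metastasis, and the androgen-against-control difference itself was tested between the lines in a fit of all 34 libraries. Of 17323 genes, 860 (4.96%) differed, 482 with the LNCaP value above the VCaP value (2.78%) and 378 below (2.18%). In that fit 1594 genes were called in LNCaP (9.2%), 892 higher (5.15%) and 702 lower (4.05%), and 2275 in VCaP (13.1%), 1254 higher (7.24%) and 1021 lower (5.89%). The count of 860 was 434 without LNCaP androgen replicate 1, 410 without LNCaP control replicate 1, 482 without VCaP androgen replicate 2 and 377 without VCaP control replicate 2. KLK3 returned to about the control level in LNCaP but rose in VCaP from 84.8 and 102 CPM to 3446 and 840 CPM (VCaP log2 4.52, LNCaP minus VCaP log2 -4.18 ± 0.75, adjusted p 0.00185). FKBP5 rose in VCaP from 148 and 217 to 1054 and 768 CPM (LNCaP minus VCaP log2 -1.88 ± 0.40, adjusted p 0.00649). PTPN21, higher in LNCaP by log2 4.00 in this fit, was at 45.9 and 43.5 CPM in VCaP control and 32.1 and 20.9 CPM in VCaP androgen medium (difference log2 4.75 ± 0.39, adjusted p 1.26e-07). TM4SF1 fell in LNCaP and rose in VCaP from 55.5 and 54.9 to 126 and 172 CPM (difference log2 -3.22 ± 0.45, adjusted p 0.000151).

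The medians of the cell cycle lists were lower in LNCaP than in VCaP. Tested gene by gene, the difference between the lines was called in 4.96% of all genes, 2.78% higher and 2.18% lower in LNCaP. In VCaP alone 7.24% of all genes were called higher and 5.89% lower. The 30 mitosis genes had a median of log2 -1.92 with 28 called lower in LNCaP and of -0.17 with 0 called in VCaP, and the difference itself was called in 6 of 30. The 32 replication genes had medians of -1.45 and -0.60, with 26 and 5 called lower, and the difference was called in 2. The ATF4 list, chosen after its LNCaP values were seen, had a median of 0.10 in VCaP with 5 called higher and 1 lower, and the difference was called in 12 of 49, all lower in LNCaP. Cholesterol synthesis genes differed in 5 of 25, all higher in LNCaP, with LSS at log2 1.75 ± 0.25 (adjusted p 0.00017). Interferon-stimulated genes had medians of -0.13 in LNCaP and 1.67 in VCaP, where 12 of 30 were called higher, and 2 differed between the lines.

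**Figure D5:**
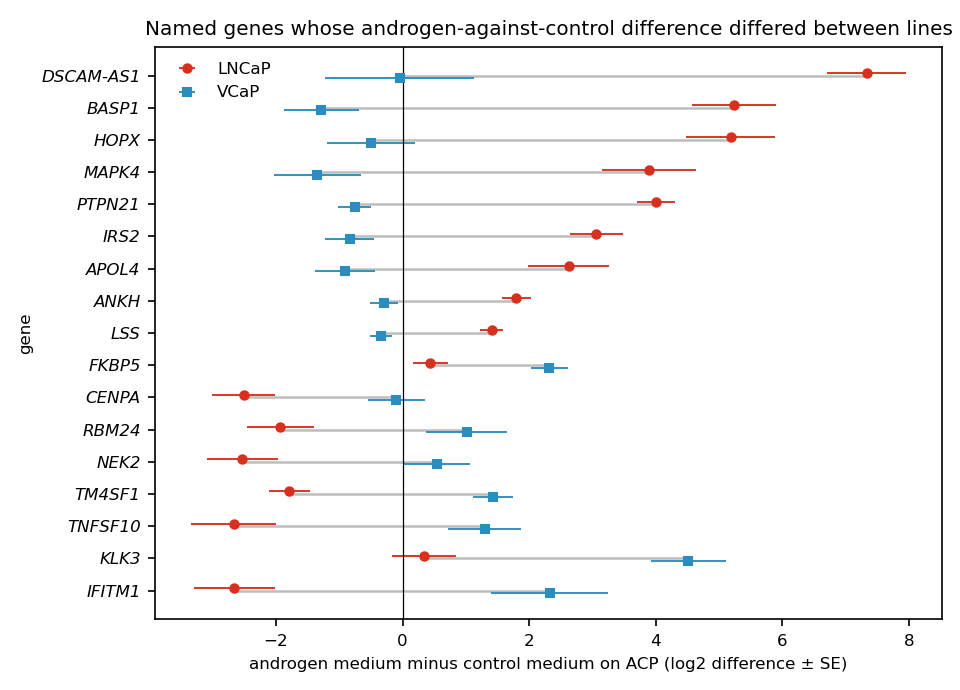
For the 17 named genes whose androgen-against-control difference on ACP differed between the lines, points give the log2 difference in LNCaP (circles) and VCaP (squares) with bars of 1 SE, from the fit of all lines. KLK3 and FKBP5 lie near 0 in LNCaP (0.34 and 0.44) and at 4.52 and 2.32 in VCaP, while genes such as PTPN21 lie high in LNCaP only (4.00 against -0.75).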

How the data were processed

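RNA was poly(A)-selected, per the labels' protocols, and the authors deposited 1 table of raw read counts for 26336 genes in 34 libraries. STAR, HTSeq and hg19 are named in the submitters' processing notes, and the annotation and strand setting were not given in the sources used here. The counts were tested with edgeR 4.0.16 (limma 3.58.1, R 4.3.3) by the quasi-likelihood test with TMM scaling, filterByExpr at a minimum count of 10 and Benjamini-Hochberg adjustment at 0.05, in 1 fit of the 10 LNCaP libraries on plastic and ACP. The median 95% interval of a difference reached log2 0.46 to either side, from the spread between libraries (biological coefficient of variation 16.8%) and counting error together. On simulated counts with 200 genes changed by log2 1, 92 were recovered (46%) among 14298 genes with 4 false calls, and by log2 2, 172 (86%) among 14319 with 7. The simulation took its spread from the fit and changed far fewer genes than were called in the data. Its rates need not hold for the data. LNCaP minus VCaP was an interaction term in a fit of all libraries.

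Named genes were the 8 largest rises and falls among called genes of at least 5 CPM whose libraries did not overlap, the 3 largest stripping rises and falls of each class, the largest rise and fall called in each list, and 8 genes named in earlier work on the series. Members and lists were chosen with earlier results of these data known. The ATF4 and lysosome lists, the motifs other than AGAACA, and other genes named within lists, whose values with a library left out were computed too, were chosen after their values were seen. Alternatives tried were RLE scaling, no count filter, DESeq2 1.42.0, a replicate block, fewer or more groups in the fit, other thresholds and each library left out. Some genes are not reported here.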

Additional observations from a re-analysis of the deposited data

Results flagged for a closer look

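For 17 of the 64 named genes the androgen-against-control difference on ACP differed between LNCaP and VCaP in the interaction test of edgeR. The share over all genes was 4.96%. Many of the 64 were picked for a large difference in LNCaP, which is part of this test, so the count is no result by itself. Values are log2, LNCaP minus VCaP, and the 8 libraries of both comparisons were left out in turn. BASP1 (6.52), HOPX (5.69), MAPK4 (5.24), PTPN21 (4.75), IRS2 (3.90), ANKH (2.09) and LSS (1.75) were higher in LNCaP and were called with each of the 8 left out. In VCaP, BASP1 was at 13.8 and 7.65 CPM in control and 2.08 and 6.70 CPM in androgen medium, IRS2 at 153 and 214 against 131 and 74.7 CPM, and LSS at 450 and 407 against 352 and 322 CPM. DSCAM-AS1 (7.38) was under 1 CPM in all 4 VCaP libraries, and its call was lost without VCaP control replicate 1 or 2. APOL4 (3.53) was lost without LNCaP androgen replicate 2 or LNCaP control replicate 2.

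KLK3 (-4.18), TM4SF1 (-3.22) and FKBP5 (-1.88) were lower in LNCaP than in VCaP and called with each of the 8 libraries left out, KLK3 between -4.86 and -2.83. TNFSF10 (-3.97) was at 29.4 and 15.6 CPM in VCaP control and 38.3 and 72.2 CPM in VCaP androgen medium, and was lost without LNCaP androgen replicate 1 or VCaP control replicate 2. IFITM1 (-4.99) was lost without VCaP androgen replicate 2 or VCaP control replicate 2. The mitosis genes NEK2 (-3.07) and CENPA (-2.42) were called with 3 of the 8 left out, and were lost without LNCaP androgen replicate 1, LNCaP control replicate 1, VCaP androgen replicate 2 or either VCaP control library. RBM24 (-2.94) was also called with 3 of the 8 left out, and was lost without LNCaP androgen replicate 2, LNCaP control replicate 2, VCaP control replicate 2 or either VCaP androgen library. CENPA was at 51.4 and 38.7 CPM in VCaP control and 36.2 and 48.1 CPM in VCaP androgen medium.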

How the results depend on the processing

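None of the 54 named genes called changed direction under any alternative run, and 32 kept their call under every one. Of the 10 not called 5 changed sign with a library left out: REG4 (log2 2.69, and -0.86), IGF1R (0.13, and -0.25) and AMIGO2 (-0.20, and 0.12) without androgen replicate 1, and HOXA11 (-0.18, and 0.16) and TMPRSS2 (0.32, and -0.07) without control replicate 1. Counts below are for androgen against control, stripped against control, androgen against stripped, restored, overshot and left off, in that order, beside 2218, 787, 1133, 123, 25 and 363. With 1 library left out they ranged from 701 to 2555, 191 to 771, 201 to 1771, 20 to 119, 9 to 68 and 103 to 462, and the list members called from 88 to 155 beside 132. Without a count filter they were 2982, 1732, 2028, 272, 87 and 862, and with DESeq2 2888, 1331, 1759, 212, 51 and 637. With only the 3 LNCaP groups on ACP in the fit they were 1466, 416, 514, 54, 15 and 193, and without the plastic control group 1548, 504, 696, 68, 16 and 222. In the fit of all lines they were 1594, 605, 739, 75, 19 and 229. An interval within 1.5-fold left 46 restored genes, and an absolute log2 of at least 1 left 1058, 476 and 686 genes called in the 3 comparisons. LNCaP minus VCaP gave 860 genes, 1550 with DESeq2, 508 with only the ACP groups of both lines and 377 to 887 with 1 library left out. Apart from the smaller number of libraries in some fits, the cause was not tested. The labels share only replicate numbers between groups, and the replicate block gave 2330, 866, 1231, 127, 35 and 396, and 1125 for LNCaP minus VCaP. Same-numbered libraries of ACP control and androgen deviated together at r = 0.252, of control and stripped at 0.0437. On simulated counts, with the limits given above, 46% of changes of log2 1 were recovered.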

Other observations

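A list of 41 lysosomal genes was written after the values were seen. Of these 13 were called higher and 0 lower than in control medium by edgeR's quasi-likelihood test, with a median of log2 0.38 beside -0.01 over all genes tested. The shares over all genes tested were 7.76% higher and 7.38% lower. The count was 5 without androgen replicate 1, 8 without androgen replicate 2 and 4 without control replicate 1. Stripping had already raised 7 and lowered 1, and 6 were left off. GABARAPL1, of autophagosome formation, was at 53.6 and 88.0 CPM in control, 159 and 144 CPM in stripped and 228 and 180 CPM in androgen medium (log2 1.53 ± 0.21, adjusted p 0.00193). SCARB2, a membrane protein of lysosomes, was at 504 and 621, 998 and 1269, and 982 and 1039 CPM (log2 0.84 ± 0.18, adjusted p 0.0102, and 0.0665 without control replicate 1). In both genes the androgen libraries lay above the control libraries. In VCaP 6 of the 41 were called higher and 1 lower, beside 7.24% and 5.89% of all genes. The difference between the lines was called in 3 each way, beside 2.78% and 2.18% of all genes.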
